A study of Mus musculus with 7 samples.

Results

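A set of 33 genes of sterol and fatty acid synthesis, chosen by name, was examined in mouse C2C12 myotubes with and without electrical pulse stimulation (EPS). The deposited tables list 26607 genes by symbol, and 32 of the 33 symbols were found there. Msmo1, which encodes a methylsterol monooxygenase, was not listed under that symbol. By role, the 32 genes comprise 5 regulators, 8 enzymes of the mevalonate and isoprenoid steps, 9 enzymes of the sterol steps, 1 sterol transfer protein and 9 enzymes that make, elongate or desaturate fatty acids.

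C2C12 is an established mouse myoblast line whose cells fuse into multinucleated myotubes when serum is lowered, so every library comes from a single cell line. The control group holds 3 unstimulated libraries, numbered 1, 3 and 4, and the EPS group holds 4 libraries, numbered 1 to 4. EPS, a pulsed current that makes the myotubes contract, began 3 days after differentiation was induced and ran for 24 h, with 1 h of rest before harvest. It is used as a culture model of exercise without the other organs. Poly(A) RNA was sequenced, and the values are CPM, the reads of a gene scaled by the reads of the library. Nothing in the labels says whether the libraries came from separate cultures, so the p-values measure only the spread between these samples, which may be technical.

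Sterol synthesis starts from acetyl-CoA, runs through mevalonate and the isoprenoid diphosphates to squalene, closes squalene into lanosterol and trims lanosterol to cholesterol. The transcription factors SREBP-1 and SREBP-2, encoded by Srebf1 and Srebf2, are made as membrane proteins of the endoplasmic reticulum. SCAP escorts them to the Golgi for cleavage when sterols are scarce, whereas INSIG-1 and INSIG-2 hold the complex back when sterols are plentiful. Insig1 is itself a well-known SREBP target, and SREBP-1c is known mainly for genes of fatty acid synthesis, SREBP-2 mainly for genes of sterol synthesis. SREBPs bind sterol regulatory elements and are known to act together with the factors NF-Y and SP1 at neighbouring sites.

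Promoters were read from the RefSeq table of GRCm38.p6, which gives 250 bases before to 50 after each start, and 25 of the 32 genes had an entry. Fdps, Fdft1, Sqle, Stard4, Scd1, Scd2 and Fads1 had none. The 3 upstream sequences shown belong to Insig1, the regulator with the lowest P of the 32 genes, Hmgcs1, the one gene with a match to the sterol regulatory element core, and Sc5d, a late enzyme of the sterol steps. They are written 5′ to 3′ on the strand of the gene, end before the annotated gene, and capitals mark CCAAT or its complement ATTGG, bound by NF-Y, and TCACNCCAC, the core of a sterol regulatory element. The windows lie at chr5:28071162-28071362 on the plus strand, chr13:119690101-119690350 on the plus strand and chr9:42264301-42264550 on the minus strand.
Insig1: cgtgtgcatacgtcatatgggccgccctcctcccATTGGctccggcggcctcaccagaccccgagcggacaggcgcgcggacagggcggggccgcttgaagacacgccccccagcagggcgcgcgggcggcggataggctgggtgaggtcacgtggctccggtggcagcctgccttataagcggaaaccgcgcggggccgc
Hmgcs1: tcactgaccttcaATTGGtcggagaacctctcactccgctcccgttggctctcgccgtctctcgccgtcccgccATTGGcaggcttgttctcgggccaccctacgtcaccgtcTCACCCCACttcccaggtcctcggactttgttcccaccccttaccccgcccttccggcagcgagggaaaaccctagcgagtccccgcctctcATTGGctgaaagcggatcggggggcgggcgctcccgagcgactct
Sc5d: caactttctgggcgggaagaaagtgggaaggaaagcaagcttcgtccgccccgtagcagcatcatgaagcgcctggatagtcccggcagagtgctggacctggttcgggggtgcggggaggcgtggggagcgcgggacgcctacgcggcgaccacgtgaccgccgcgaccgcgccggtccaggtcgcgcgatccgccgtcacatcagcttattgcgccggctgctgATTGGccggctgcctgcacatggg
The Hmgcs1 sequence holds 1 element core and 3 copies of CCAAT or ATTGG, and the Insig1 and Sc5d sequences hold 1 copy of ATTGG each.

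Searched on both strands of the whole windows, TCACNCCAC was present in 1 of the 25 genes with an entry (4%) and in 1.44% of the 27025 genes of the table. A gene was counted if any of its windows held the motif. The element was searched only in this form and only in these windows, so the lack of a match does not show the lack of an element. CCAAT was present in 20 of 25 (80%), against 41.1% of the genes of the table. GGGCGG, the core of an SP1 site, was also present in 20 of 25, against 38.2%, and CACGTG, an E-box, in 6 of 25 (24%), against 8.09%. Of the 13 genes with an entry that were lower in the EPS group at P under 0.05, 11 held CCAAT, 12 held GGGCGG and 3 held CACGTG. No motif contains another of them, and a match describes the letters of the window and not a bound site. The genes of the table were not limited to those expressed in these cells. Whether the shares of the 25 genes differ from those of expressed genes was not tested.

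Recovered reads totalled 16616917 to 22120641 per library in the control group and 18830229 to 21892568 in the EPS group, and the least covered of the 32 genes had 220 reads in its lowest library. Control replicate 4 stood apart, with 14014 genes above 0 against 16144 to 16984 in the other 6 libraries, and with 359 genes of 1 to 5 reads against 2670 to 3181.

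Genes were tested with limma on log2(CPM + 1) over 19144 genes, those with a value above 0 in any library, and log2 fold changes are on that scale. Insig1 and 7 of the 17 enzymes of sterol synthesis fell in the EPS group at P under 0.01, by most in Insig1, Sqle, Acat2, Idi1 and Cyp51, whereas the other 10 enzymes, the other regulators and the fatty acid enzymes did not pass that threshold. Of the 32 genes, 15 were lower at P under 0.05, against 3.21% of all genes tested, and 0 were higher, against 8.40%. With edgeR and DESeq2 on recovered reads 0 were higher and 16 were lower in each, where 5.60% and 5.19% of all genes were higher and 5.95% and 5.42% were lower. At P under 0.01, 8 were lower, against 1.34%, and 0 were higher, against 2.83%. Insig1 alone passed both P under 0.01 and 2-fold, against 0.439% of all genes that did so downward, and it alone had an adjusted p under 0.05 (limma, Benjamini-Hochberg), against 0.0418%. All EPS libraries lay below all control libraries in 11 of the 32 genes, against 2.85% of all genes tested, and above in 0, against 7.76%. A sign toward lower values was seen in 27 of the 32 genes, against 36.7% of all genes tested. The median log2 fold change of the 32 genes was -0.39, beside 0.041 over all genes tested and 0.10 over the 12256 genes with a mean of at least 1 CPM. Leaving out 1 library ended the adjusted p under 0.05 of Insig1 whichever library it was, and without EPS replicate 2 there were 5 genes lower at P under 0.01 instead of 8, against 1.27% of all genes. Without control replicate 4 there were 15 genes lower at P under 0.05 and 8 at P under 0.01, against 3.87% and 1.41% of all genes, and the median log2 fold change was -0.46. With edgeR and DESeq2 on recovered reads, 5 and 8 of the 32 genes were lower at an adjusted p under 0.05, against 0.737% and 1.34% of all genes. On scales that bring the last of these medians near 0, the median of the 32 genes was -0.50 with median-of-ratios scaling and -0.48 with quantile normalization.

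**Figure D1:**
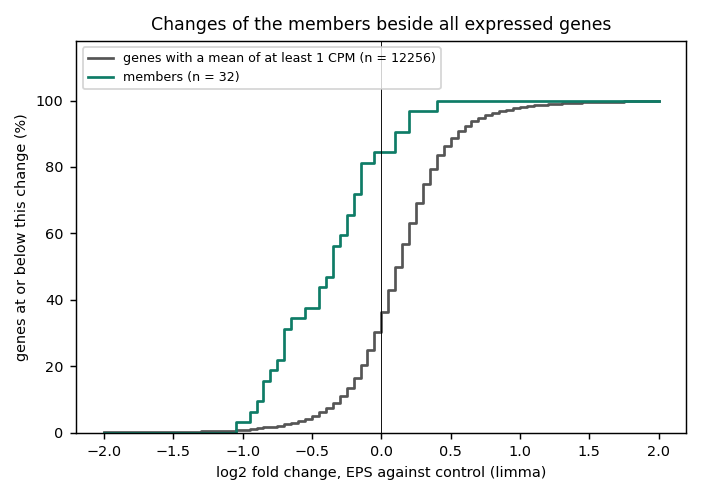
Cumulative share of genes, in percent, at or below each log2 fold change of EPS against control, in bins of 0.05, for the 32 genes (green) and for the 12256 genes with a mean of at least 1 CPM (grey). The green curve lies to the left, with 84.4% of the 32 genes below 0 against 36.4% of the expressed genes.

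**Figure D2:**
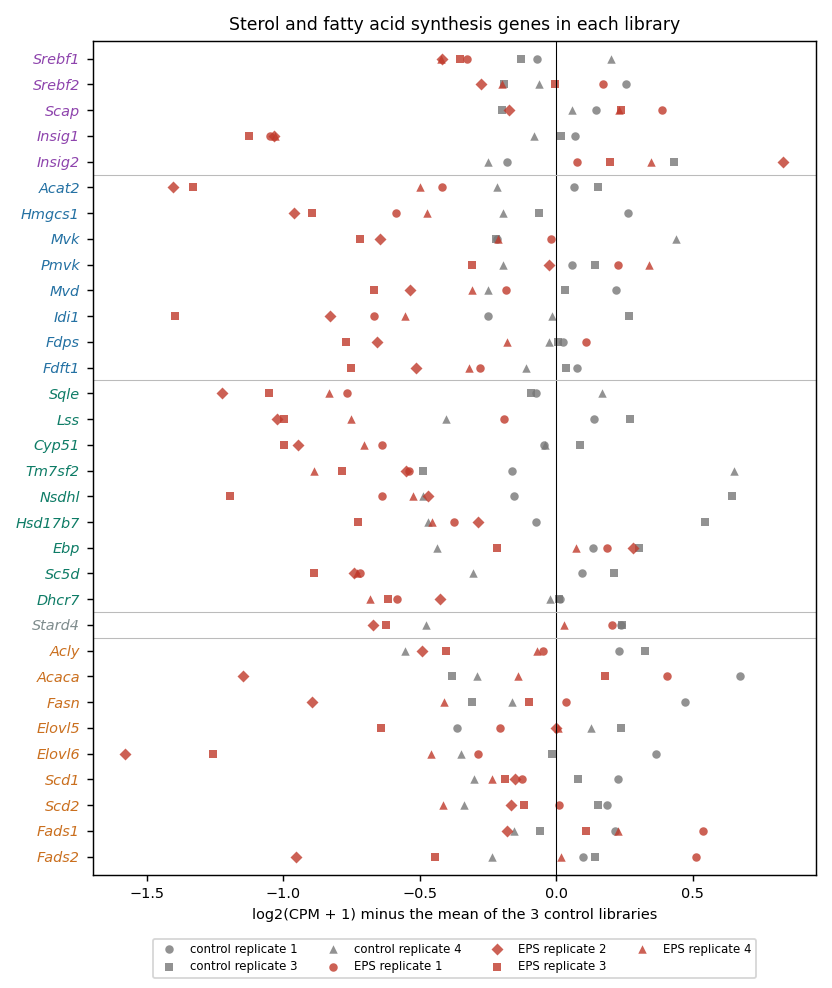
Each point is 1 library's log2(CPM + 1) minus the mean of the 3 control libraries, for the 32 genes ordered and coloured by role from regulators (top) to fatty acid enzymes (bottom), in control (grey) and EPS (red) libraries. The EPS points of Insig1 and of many genes from Acat2 to Dhcr7 lie left of all control points, whereas most fatty acid genes are mixed.

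Of the 5 regulators, Insig1 fell and the others did not reach P under 0.01. Insig1 (ENSMUSG00000045294.11) is on chromosome 5 of GRCm38, bases 28071363 to 28078662, and its upstream bases are those shown above. Its level was 155, 149 and 139.6 CPM in control replicates 1, 3 and 4 and 71.0, 71.7, 67.2 and 71.9 CPM in EPS replicates 1 to 4. The EPS libraries lay close together and all below the control libraries. It averaged 148 ± 7.79 CPM in control libraries (SD, n = 3) and 70.4 ± 2.20 CPM in EPS libraries (SD, n = 4), which is 52.4% lower, and its log2 fold change was -1.06, with an SE of 0.12 (limma, adjusted p = 0.0280). The exact permutation test of the difference in means gave p = 0.0286 (two-sided), the smallest that 35 ways of dividing 3 and 4 libraries allow, and it gave the same p for each gene below whose groups do not overlap.
Insig2, which encodes the second INSIG protein, averaged 64.7 ± 18.1 CPM in control libraries (SD, n = 3) and 83.2 ± 20.8 CPM in EPS libraries (SD, n = 4), a log2 fold change of 0.36 (95% interval -0.17 to 0.89), with the groups overlapping. EPS replicate 2 was its highest library, at 113 CPM. Without control replicate 3 its log2 fold change was 0.58, with P under 0.05 and all EPS libraries above the remaining control libraries. Whether Insig1 and Insig2 differ in their change was not tested.
Srebf1 was 129, 123 and 155 CPM in control replicates 1, 3 and 4 and 107, 100.7, 106 and 100.5 CPM in EPS replicates 1 to 4. All 4 EPS libraries were below the control libraries, by a log2 fold change of -0.38 (SE 0.14, limma adjusted p = 0.317), so it did not pass at P under 0.01, although it did with median-of-ratios scaling (-0.49), quantile normalization (-0.44) and DESeq2 (-0.50). It missed P under 0.05 without control replicate 4 (-0.28), its highest library, or EPS replicate 4 (-0.37). Srebf2 and Scap were at similar levels in both groups, with log2 fold changes of -0.077 (95% interval -0.52 to 0.36) and 0.17 (-0.22 to 0.56). Srebf2 was between 343 and 469 CPM in the control and between 324 and 442 CPM in the EPS group. Scap ranged over 58.4 to 74.4 CPM in the control and 59.5 to 88.3 CPM in the EPS group. Without EPS replicate 2 the log2 fold change of Scap was 0.28, not at P under 0.05, with all remaining EPS libraries above the control libraries.

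Of the 8 enzymes from acetyl-CoA to squalene, 7 were lower, against 36.7% of all genes tested. At P under 0.05, 5 were lower, against 3.21%, and at P under 0.01, 3 were lower, against 1.34%. Their median log2 fold change was -0.45. Acat2, Hmgcs1 and Idi1 fell. Acat2, the cytosolic thiolase that joins acetyl-CoA units, was 94.5, 100.4 and 77.4 CPM in control replicates 1, 3 and 4 and 67.2, 33.5, 35.3 and 63.6 CPM in EPS replicates 1 to 4. EPS replicates 2 and 3 were the low ones, and replicates 1 and 4 were closer to the control. The groups did not overlap, and the log2 fold change was -0.91 (SE 0.27, limma adjusted p = 0.231). It missed P under 0.01 when any one of control replicates 1, 3 and 4 or EPS replicates 2 and 3 was left out (log2 fold changes from -0.75 to -1.02).
Hmgcs1, which makes the HMG-CoA from which mevalonate is formed, was 409.7, 327 and 298 CPM in control replicates 1, 3 and 4 and 227, 175, 184 and 246 CPM in EPS replicates 1 to 4. Here too EPS replicates 2 and 3 were lowest and no EPS library reached the control range. The mean fell by 39.7%, a log2 fold change of -0.73 (SE 0.19, limma adjusted p = 0.180). It missed P under 0.01 without control replicate 1, EPS replicate 2 or EPS replicate 3 (log2 fold changes from -0.60 to -0.67). Hmgcs1 (ENSMUSG00000093930.2) is on chromosome 13 of GRCm38, bases 119690379 to 119708260, downstream of the sequence with the element core.
Idi1, the isomerase of isopentenyl diphosphate, was 41.8, 60.3 and 49.4 CPM in control replicates 1, 3 and 4 and 31.0, 27.7, 18.4 and 33.7 CPM in EPS replicates 1 to 4. EPS replicate 3 was far below the other EPS libraries, and control replicate 1 was the lowest of the control libraries but above all of EPS. Its log2 fold change was -0.86 (SE 0.23, limma adjusted p = 0.193), and it missed P under 0.01 without control replicate 3, control replicate 4 or EPS replicate 2 (from -0.73 to -0.87).
Fdft1, the squalene synthase that commits farnesyl diphosphate to sterols, was 154, 149.6 and 135 CPM in control replicates 1, 3 and 4 and 120.0, 102, 86.1 and 116.6 CPM in EPS replicates 1 to 4. The groups were apart, by a log2 fold change of -0.47 (SE 0.16, limma adjusted p = 0.283), and EPS replicate 3 was again lowest. Mvd, the decarboxylase that forms isopentenyl diphosphate, was 44.5, 39.1 and 31.9 CPM in control replicates 1, 3 and 4 and 33.4, 26.0, 23.7 and 30.6 CPM in EPS replicates 1 to 4. EPS replicate 1 was above control replicate 4, so the groups overlapped, and the log2 fold change was -0.42 (SE 0.19, limma adjusted p = 0.427). Mvd missed P under 0.05 when any one library but control replicate 4 or EPS replicate 1 was left out (-0.32 to -0.46), and Fdft1 did so without control replicate 1 (-0.43). Fdft1 passed P under 0.01 with median-of-ratios scaling (-0.58), quantile normalization (-0.54) and DESeq2 (-0.58).
The 2 kinases of the pathway and the farnesyl diphosphate synthase did not reach P under 0.05. Mvk averaged 37.8 ± 10.9 CPM in control libraries (SD, n = 3) and 28.3 ± 6.88 CPM in EPS libraries (SD, n = 4), a log2 fold change of -0.40 (95% interval -0.95 to 0.16). That value was -0.18 without control replicate 4 and -0.53 without EPS replicate 1. Pmvk averaged 22.1 ± 2.73 CPM in control libraries (SD, n = 3) and 23.2 ± 4.66 CPM in EPS libraries (SD, n = 4), a log2 fold change of 0.057 (-0.41 to 0.53), whose sign turned with the scaling of the libraries. Fdps stayed within 265 to 275 CPM in the control, whereas EPS replicates 1 and 4 were at 291 and 238 CPM and EPS replicates 2 and 3 at 171 and 158 CPM, a log2 fold change of -0.37 (-0.89 to 0.14), which was -0.54, at P under 0.05, without EPS replicate 1.

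**Figure D3:**
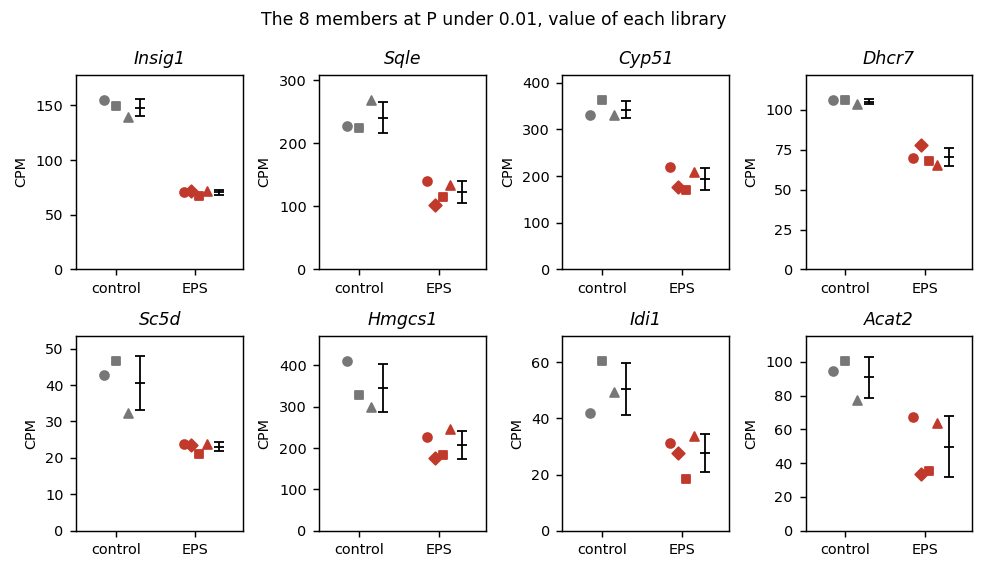
CPM of each library for the 8 genes at P under 0.01 in limma, in control (grey, n = 3) and EPS (red, n = 4); circle, diamond, square and triangle are replicates 1, 2, 3 and 4, and the bars give the mean and SD. All EPS points lie below all control points in each panel, and Acat2 and Idi1 have the widest relative spread among the EPS libraries.

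The 9 enzymes of the sterol steps, from squalene onward, had the lowest median of the roles, a log2 fold change of -0.71. Lower values were seen in 8 of them, against 36.7% of all genes tested, and 7 were lower at P under 0.05, against 3.21%. At P under 0.01, 4 were lower, Sqle, Cyp51, Sc5d and Dhcr7, against 1.34% of all genes. Sqle, the squalene epoxidase and a rate-limiting enzyme of the pathway, was 228, 225 and 269 CPM in control replicates 1, 3 and 4 and 140.2, 102, 115 and 134 CPM in EPS replicates 1 to 4. The lowest control library was well above the highest EPS library. The mean of Sqle fell by 48.9%, 240.4 ± 24.6 CPM in control libraries (SD, n = 3) and 123 ± 17.6 CPM in EPS libraries (SD, n = 4), and its log2 fold change was -0.97 (SE 0.16, limma adjusted p = 0.0712). The gene is on chromosome 15 of GRCm38, bases 59315077 to 59331192.
Cyp51, which removes a methyl group from lanosterol, was 331, 363 and 332 CPM in control replicates 1, 3 and 4 and 219, 177, 170.5 and 209 CPM in EPS replicates 1 to 4. The groups were apart, and EPS replicates 2 and 3 were the lowest. Its mean fell by 43.3%, 342 ± 18.4 CPM in control libraries (SD, n = 3) and 194 ± 23.8 CPM in EPS libraries (SD, n = 4), a log2 fold change of -0.82 (SE 0.16, limma adjusted p = 0.0965), on chromosome 5, bases 4081145 to 4104746.
Sc5d, a sterol desaturase whose upstream sequence is shown above, was 42.8, 46.5 and 32.2 CPM in control replicates 1, 3 and 4 and 23.9, 23.6, 21.2 and 23.7 CPM in EPS replicates 1 to 4. The EPS libraries differed little, with replicate 3 slightly below the others, and control replicate 4 was nearest to them. The log2 fold change was -0.77 (SE 0.17, limma adjusted p = 0.126). Dhcr7, the reductase of the last step to cholesterol, was 106, 106 and 103 CPM in control replicates 1, 3 and 4 and 69.7, 77.9, 68.1 and 65.1 CPM in EPS replicates 1 to 4. Both groups were tight and apart, and the log2 fold change of -0.58 had an SE of 0.13 (limma, adjusted p = 0.121).
Lss, the cyclase that makes lanosterol, was 73.3, 80.4 and 50.1 CPM in control replicates 1, 3 and 4 and 58.2, 32.3, 32.9 and 39.2 CPM in EPS replicates 1 to 4. EPS replicate 1 lay above control replicate 4, and the exact permutation p was 0.0857. Its log2 fold change was -0.74 (SE 0.25, limma adjusted p = 0.283), and it passed P under 0.01 without control replicate 4 (-0.94) or EPS replicate 1 (-0.92) and missed P under 0.05 without control replicate 1 (-0.67) or control replicate 3 (-0.61). Nsdhl, a dehydrogenase that helps remove methyl groups from the sterol ring, was 119.3, 208 and 94.6 CPM in control replicates 1, 3 and 4 and 85.0, 95.8, 57.5 and 92.1 CPM in EPS replicates 1 to 4. Control replicate 3 was the highest library and without it the log2 fold change moved from -0.71 (SE 0.28, limma adjusted p = 0.379) to -0.39, no longer at P under 0.05. It also missed P under 0.05 without EPS replicate 1 (-0.73) or EPS replicate 3 (-0.54). Without control replicate 4 it was -0.95, at P under 0.01.
Tm7sf2, a sterol reductase, was 19.9, 15.7 and 35.8 CPM in control replicates 1, 3 and 4 and 15.1, 15.005, 12.6 and 11.7 CPM in EPS replicates 1 to 4. Control replicate 4 was far above every other library. The log2 fold change of -0.69 (SE 0.28, limma adjusted p = 0.387) became -0.36 without that library, no longer at P under 0.05, and also missed it without EPS replicate 1, 3 or 4 (-0.62 to -0.74). At P under 0.01, edgeR called Tm7sf2 (-0.92), Nsdhl (-0.87) and Lss (-0.83), and DESeq2 called them too (-0.93, -0.88 and -0.85). Hsd17b7, the ketoreductase of the same demethylation as Nsdhl, averaged 69.5 ± 25.5 CPM in control libraries (SD, n = 3) and 48.4 ± 6.22 CPM in EPS libraries (SD, n = 4), with a log2 fold change of -0.46 (SE 0.24, limma adjusted p = 0.504), which was -0.19 without control replicate 3 and -0.70, at P under 0.05, without control replicate 4. Hsd17b7 was also at P under 0.05 with median-of-ratios scaling (-0.57), quantile normalization (-0.54), edgeR (-0.62) and DESeq2 (-0.63). Ebp, the sterol isomerase, averaged 154 ± 38.9 CPM in control libraries (SD, n = 3) and 161 ± 23.2 CPM in EPS libraries (SD, n = 4), and its log2 fold change of 0.079 (-0.40 to 0.56) changed sign with median-of-ratios scaling.
The missing symbol Msmo1 has the older symbol Sc4mol in the RefSeq table, and a gene so named is listed. Sc4mol was 144, 232 and 105 CPM in control replicates 1, 3 and 4 and 99.4, 116, 68.2 and 105 CPM in EPS replicates 1 to 4, a log2 fold change of -0.67 (SE 0.28, limma adjusted p = 0.403). By limma Sc4mol was lower at P under 0.05, and at P under 0.01 with edgeR (-0.83) and DESeq2 (-0.84). With limma it missed P under 0.05 when any one library but control replicate 4 or EPS replicate 2 was left out (-0.37 to -0.72). Control replicate 3 was again the high library, as for Nsdhl and Hsd17b7, and without it the log2 fold change was -0.37, whereas it was -0.94 without control replicate 4. Sc4mol is not among the 32 genes counted here.

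From Acat2 to Dhcr7, 15 of the 17 enzymes were lower, 12 of them at P under 0.05 and 7 at P under 0.01. In 9 all EPS libraries lay below the control. The shares of all genes tested were 36.7%, 3.21%, 1.34% and 2.85%, in that order. Among the other 15 genes, 3 were lower at P under 0.05, namely Srebf1, Insig1 and Elovl6, and 1 at P under 0.01. The median log2 fold changes were -0.69 and -0.21. The difference between these counts was not tested.

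**Figure D4:**
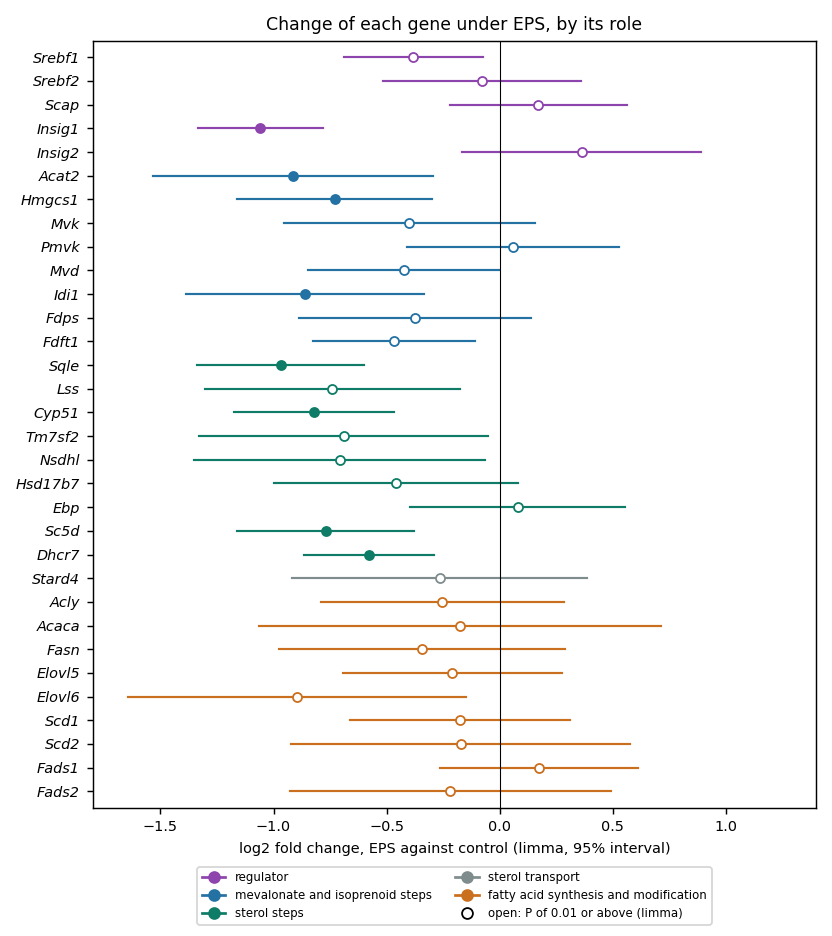
Log2 fold change of EPS against control for each of the 32 genes with its 95% interval (limma, 3 control and 4 EPS libraries), coloured by role; filled points have P under 0.01. The filled points, from -1.06 in Insig1 to -0.58 in Dhcr7, are all regulators, mevalonate or sterol enzymes, and only 5 genes have a point right of 0.

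Stard4, a soluble sterol transfer protein, was the only transport gene of the set. It averaged 29.3 ± 7.88 CPM in control libraries (SD, n = 3) and 24.5 ± 7.79 CPM in EPS libraries (SD, n = 4), and the log2 fold change was -0.27 (95% interval -0.92 to 0.39). With 1 library left out, that value ran from -0.50 (without control replicate 4) to -0.13 (without EPS replicate 2). EPS replicates 2 and 3, at 17.5 and 18.2 CPM, were low together with control replicate 4, at 20.2 CPM.

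The 9 fatty acid genes were lower in 8 cases, against 36.7% of all genes tested. By limma, 1 was lower at P under 0.05, against 3.21%, and 0 at P under 0.01, against 1.34%. The groups overlapped in each, where 2.85% of all genes had all EPS libraries below the control. A count of 0 or 1 among 9 genes is close to these shares. Elovl6, which elongates saturated and monounsaturated chains, was 94.6, 72.5 and 57.2 CPM in control replicates 1, 3 and 4 and 59.9, 23.9, 30.1 and 52.9 CPM in EPS replicates 1 to 4. EPS replicates 2 and 3 were the low libraries, whereas EPS replicate 1 was above control replicate 4. Its log2 fold change of -0.90 had an SE of 0.33 (limma, adjusted p = 0.334). It passed P under 0.01 without EPS replicate 1 (-1.10), with edgeR (-0.93) and with DESeq2 (-0.95), and missed P under 0.05 without control replicate 1 (-0.71), EPS replicate 2 (-0.67) or EPS replicate 3 (-0.77).
Fasn, the fatty acid synthase, averaged 403 ± 122 CPM in control libraries (SD, n = 3) and 317 ± 84.3 CPM in EPS libraries (SD, n = 4), a log2 fold change of -0.34 (95% interval -0.97 to 0.29). That value was -0.11 without control replicate 1, -0.16 without EPS replicate 2 and -0.50 without control replicate 3. Acly, which cleaves citrate to cytosolic acetyl-CoA, averaged 180.3 ± 54.0 CPM in control libraries (SD, n = 3) and 147 ± 23.1 CPM in EPS libraries (SD, n = 4), a log2 fold change of -0.25 (-0.79 to 0.28), which was -0.53, at P under 0.05, without control replicate 4 and -0.092 without control replicate 3. Acaca, the acetyl-CoA carboxylase that makes malonyl-CoA, ranged over 62.2 to 130.4 CPM in the control and 36.1 to 108 CPM in EPS libraries, a log2 fold change of -0.18 (-1.06 to 0.71). Replicate 1 was the highest library of its group for both Fasn and Acaca, and EPS replicate 2 the lowest of all 7.
The desaturases Scd1 and Scd2, which put the first double bond into saturated chains, were the most abundant. Scd1 averaged 766 ± 139 CPM in control libraries (SD, n = 3) and 671 ± 22.6 CPM in EPS libraries (SD, n = 4). Scd2 averaged 1936 ± 367 CPM in control libraries (SD, n = 3) and 1704 ± 204 CPM in EPS libraries (SD, n = 4). Their log2 fold changes were -0.18 (-0.66 to 0.31) and -0.17 (-0.92 to 0.58). Per kilobase of exon, Scd2 had the highest level of the 32 genes in the control group, at 354 CPM per kilobase, followed by Scd1 at 157, Cyp51 at 77.4 and Hmgcs1 at 75.1, and Acaca had the lowest, at 5.05. Scd1 and Scd2 are similar in sequence, and how reads that match both were counted is not given in the sources used here.
Elovl5, which elongates polyunsaturated chains, averaged 100.0 ± 20.9 CPM in control libraries (SD, n = 3) and 86.3 ± 16.9 CPM in EPS libraries (SD, n = 4), a log2 fold change of -0.21 (-0.69 to 0.27). Fads1 and Fads2, the desaturases of polyunsaturated chains, had log2 fold changes of 0.17 (-0.27 to 0.61) and -0.22 (-0.93 to 0.49). Fads2 was 60.3 CPM in EPS replicate 2 and 168 CPM in EPS replicate 1, which are its lowest and highest libraries. These intervals are wide, and that of Acaca holds changes in both directions that are larger than the change of Dhcr7.

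The EPS libraries were not alike for these genes. EPS replicate 1 was the highest EPS library for 22 of the 32 genes, including 8 of the 9 fatty acid genes, and EPS replicates 2 and 3 were each the lowest for 13. Over the 15 genes at P under 0.05, the median distance from the control mean on the log2(CPM + 1) scale was -0.58, -0.83, -0.996 and -0.55 in EPS replicates 1 to 4. In control replicates 1, 3 and 4 it was 0.066, 0.033 and -0.11. These 15 genes were picked for being lower. Over all 32 genes the median distance was -0.19, -0.54, -0.65 and -0.37 in EPS replicates 1 to 4. For control replicates 1, 3 and 4 that median was 0.085, 0.057 and -0.20. Control replicate 4 was the lowest control library for 21 of the 32 genes, and without it the EPS libraries were below the control libraries in 20 genes instead of 11, where non-overlap is easier with 2 control libraries and the share of all genes was 6.55% instead of 2.85%.

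**Figure D5:**
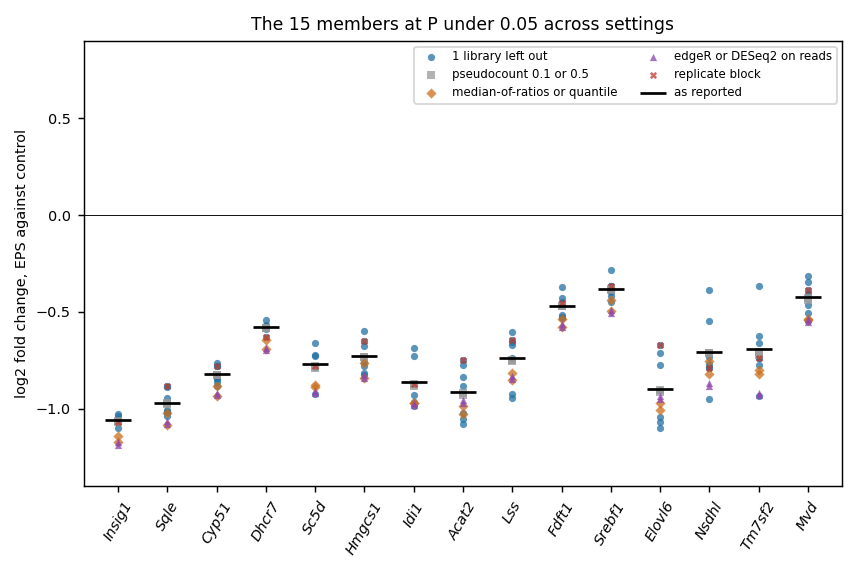
Log2 fold change of the 15 genes at P under 0.05, as reported (black bar) and under other settings: 1 library left out, pseudocounts of 0.1 and 0.5, median-of-ratios or quantile scaling, edgeR or DESeq2 on recovered reads, and a replicate block. All values of these 15 genes stayed below 0, and Nsdhl, Tm7sf2 and Elovl6 moved most.

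The 8 myotube markers were present in all libraries, summing to 9341 to 14439.8 CPM in the control and 7745 to 10652 CPM in the EPS group, and Myod1 and Actn2 were lower at P under 0.01 (log2 fold changes -0.88 and -0.99). All 8 had a negative log2 fold change, with a median of -0.54, against -0.39 for the 32 genes. That median was -0.69 for the 17 enzymes from Acat2 to Dhcr7 and -0.21 for the other 15 of the 32 genes. Myog, a myogenic transcription factor, was 473, 565 and 1794 CPM in control replicates 1, 3 and 4 and 281, 605, 406 and 278 CPM in EPS replicates 1 to 4, a log2 fold change of -1.07 that missed P under 0.05, with control replicate 4 far above the rest. The 3 markers of proliferating cells, Mki67, Top2a and Ccnb1, were higher at P under 0.05, with sums of 176 to 262 CPM in the control and 253 to 814 CPM in the EPS group. The lowest EPS sum was in EPS replicate 2, within the control range. Whether the makeup of the cultures has a part in the changes of the sterol genes was not tested, and in bulk RNA fewer cells of a type and less RNA per cell cannot be told apart.
Of 6 adipocyte markers, Plin1, Cidec, Lep and Ucp1 were at 0 in every library, and the sum of the 6 was 0 in the control and at most 0.140 CPM in the EPS group, which is 3 reads or fewer. Hepatocyte markers Alb and Apoa1 were at 0. The 3 fibroblast markers summed to 84.9 to 153 CPM in the control and 56.2 to 148 CPM in the EPS group, with Pdgfra higher and Lum lower at P under 0.05. The single satellite cell marker, Pax7, was 16.3 to 28.1 CPM in the control and 15.3 to 22.2 CPM in the EPS group. Macrophage and endothelial markers each summed to at most 2.07 CPM in any library.

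Beyond the 32 genes, 49 further genes of the pathway were examined, covering SREBP processing and degradation, acetyl-CoA supply and isoprenoid branches, partners of fatty acid synthesis, cholesterol efflux, storage and transport, and the subunits of NF-Y. Of these, 48 were above 0 in at least 1 library, and their median log2 fold change was 0.025. At P under 0.05, 1 was higher and 1 was lower, against 8.40% and 3.21% of all genes tested, and at P under 0.01, 1 was higher and 0 were lower, against 2.83% and 1.34%, with 0 at an adjusted p under 0.05 by limma and 1 each by edgeR and DESeq2, against 0.141%, 1.51% and 2.63% of all genes in either direction. Me1, the cytosolic malic enzyme that supplies NADPH for fatty acid synthesis, was 52.1, 40.2 and 50.04 CPM in control replicates 1, 3 and 4 and 84.6, 89.2, 109 and 112 CPM in EPS replicates 1 to 4. All EPS libraries were above the control libraries, and Me1 rose by 1.04 on the log2 scale (SE 0.16, limma adjusted p = 0.0692), with 0.93 to 1.11 when 1 library was left out. Rnf145, a ubiquitin ligase of the endoplasmic reticulum that acts on SCAP, had a log2 fold change of -0.45 (SE 0.20, limma adjusted p = 0.427), and the groups overlapped. None of the 11 efflux, storage and transport genes and none of the 9 acetyl-CoA and isoprenoid branch genes reached P under 0.05. Nor did the NF-Y subunits Nfya, Nfyb and Nfyc, with log2 fold changes of -0.030, 0.095 and 0.077.

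Exons of 11 of the 32 genes share bases with another annotated gene. On the same strand these are Srebf1 with Mir6922, Fdps with Gm43738, Tm7sf2 with Vps51 and Scd2 with Mir5114. On the opposite strand, Hmgcs1 shares 557 bases with Gm48342, Idi1 shares 323 with Gm48574, Fdft1 shares 774 with Ctsb, Lss shares 381 with 4930483K19Rik and Cyp51 shares 166 with Akap9. Srebf1, Scap and Elovl6 also have an opposite partner. The use of strand in counting is not given in the sources used here, so the values of these genes may include reads of the partner. Insig1, Sqle, Sc5d, Dhcr7 and Acat2 share no exon bases with another gene.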

How the data were processed

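RNA-seq was analysed in 3 control and 4 EPS libraries of C2C12 myotubes. Per the submitters' processing notes, STAR 2.5.4b and GRCm38 were used for mapping. The authors deposited the level of each gene in each library as CPM. In every library 100% of the deposited CPM values were whole multiples of 1 read, to a tolerance of 0.01 reads, so whole reads were recovered. Over all genes, an adjusted p under 0.05 was reached by 27 genes with limma on the CPM, and by 290 with edgeR and 503 with DESeq2 on the recovered reads. The counter, its annotation and its use of strand are not given in the sources used here.

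The 33 symbols were matched exactly. These members, the gene lists and the tests were chosen with earlier results of these data known. The EPS and control groups were compared, with no covariate, by limma 3.58.1 (R 4.3.3, variances moderated with a trend on the mean level) on log2(CPM + 1) over 19144 genes above 0 in at least 1 library, with Benjamini-Hochberg adjustment over all of them. Fold changes on this scale understate changes of low genes. A change was called at P under 0.01, and genes at P under 0.05 are given with the value of each library. Further pathway genes were named at P under 0.01. Rnf145 is an exception, named after its value was seen because 1 gene was lower at P under 0.05, and the NF-Y subunits are named likewise because their motif was searched. The permutation test of single genes was exact and two-sided, on mean CPM, over all 35 divisions of the libraries.

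Alternatives were a minimum mean of 1 CPM, pseudocounts of 0.1 and 0.5, median-of-ratios scaling, quantile normalization, edgeR 4.0.16 and DESeq2 1.42.0 on the recovered reads, a P threshold of 0.001, a replicate block, and leaving out each library. The methods were tested on simulated data. Gene positions and exon lengths are those of GENCODE M21 on GRCm38, and promoters those of RefSeq on GRCm38.p6. Protein sequences were not used here.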

Additional observations from a re-analysis of the deposited data

Results flagged for a closer look

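Sc5d in EPS replicate 3 was 21.2 CPM, below the other EPS libraries at 23.9, 23.6 and 23.7 CPM by a gap that makes up 0.873 of the range of the group. Values this far from their neighbours were sought in the EPS group for 33 genes, and chance gives about 1 in 20 groups. All 4 values are below the control libraries, so the difference between groups of Sc5d does not rest on this library.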

How the results depend on the processing

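The median log2 fold change of the 32 genes stayed between -0.52 and -0.34 under the 15 alternatives. Insig1, Sqle and Dhcr7 kept P under 0.01 under all of them, and Cyp51 and Sc5d lost it only with the replicate block. Their log2 fold changes with the block were -0.78 for Cyp51 and -0.78 for Sc5d, beside -0.82 and -0.77 as reported. Genes lower at P under 0.01 and over 2-fold numbered 1 as reported (0.439% of all genes), 3 with median-of-ratios scaling (0.627%), 2 with quantile normalization (0.637%), 2 with edgeR (1.57%) and 2 with DESeq2 (1.3999%). Genes lower at P under 0.01 numbered 8 as reported (1.34%), 10 with quantile normalization (1.78%), 11 with median-of-ratios scaling (1.79%), 12 with edgeR (2.46%) and 14 with DESeq2 (2.44%). Genes lower at an adjusted p under 0.05 numbered 1 as reported (0.0418%), 2 with a pseudocount of 0.1 (0.146%), 2 with a minimum mean of 1 CPM (0.294%), 5 with edgeR (0.737%) and 8 with DESeq2 (1.34%). Of the further pathway genes, examined under these alternatives after the data had been seen, 0 had an adjusted p under 0.05 as reported, and 1 each had it with a pseudocount of 0.1, a minimum mean of 1 CPM, edgeR and DESeq2, where 0.554%, 0.987%, 1.51% and 2.63% of all genes did in either direction. The causes were not tested.

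Leaving out 1 library at a time gave 1 to 4 genes lower at P under 0.01 and over 2-fold, 5 to 10 at P under 0.01, 11 to 15 at P under 0.05, 0 to 1 higher at P under 0.05, 0 to 0 with an adjusted p under 0.05, 11 to 20 whose EPS libraries were all below the control and 0 to 1 whose EPS libraries were all above it. With fewer libraries groups overlap less often by construction, and those shares of all genes were 3.44% to 6.55% below and 9.76% to 16.2% above. The shares lower were 0.302% to 0.583% at P under 0.01 and over 2-fold, 0.816% to 1.41% at P under 0.01, 2.26% to 3.97% at P under 0.05 and 0% to 0.0211% at an adjusted p under 0.05, and 6.46% to 10.2% were higher at P under 0.05.

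With the replicate block, 3 genes were lower at P under 0.01, 7 at P under 0.05 and 0 had an adjusted p under 0.05, against 0.648%, 2.98% and 0% of all genes. Acat2 (-0.75), Hmgcs1 (-0.65) and Idi1 (-0.87) were among those no longer at P under 0.01 with the block, and Acat2 also missed P under 0.05. EPS replicate 2 has no partner and carries no weight in that fit. Same-numbered libraries deviated from their group means with correlations across genes of 0.25, -0.45 and 0.068 for numbers 1, 3 and 4. These values cannot decide whether equal numbers mark pairs, because libraries of different numbers were not compared. The main fit was run without pairing.

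Of 480 values of single genes, 428 kept their sign and side of P under 0.01, 16 reversed, and 27 of the 32 genes never reversed. None of the 5 genes that did had passed that threshold. Pmvk was -0.051 with median-of-ratios scaling, -0.077 with quantile normalization, -0.024 with edgeR and -0.039 with DESeq2, and -0.041 to 0.18 with 1 library left out. Ebp was -0.033, -0.043 and -0.057 with median-of-ratios scaling, edgeR and DESeq2, and -0.14 to 0.23 with 1 library left out. With the replicate block, Acaca was 0.15 and Fads2 was 0.028. With 1 library left out, Acaca was -0.37 to 0.16, Fads2 -0.46 to 0.028 and Srebf2 -0.17 to 0.051. The least covered of the 32 genes had 220 reads in its lowest library.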
